A study of Mus musculus with 60 samples.

Results

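Imprinted genes are expressed mainly from the copy inherited from 1 parent. They lie in clusters, each under an imprinting control region whose DNA methylation differs between the maternal and the paternal copy. Many of them set fetal growth, and several are strongly expressed in the developing brain. The 10 genes named at the outset were H19, Igf2, Peg3, Dlk1, Meg3, Ndn, Snrpn, Cdkn1c, Plagl1 and Grb10. Of these, 8 could be followed, each through the 1 transcript cluster (a row of the array) that carries its symbol and no other. H19 had no such row among those used, and Snrpn shared its row with another symbol, so neither was analysed here. The transcript clusters used were 10569344 for Igf2, 10559796 for Peg3 and, for the other 6 genes, likewise the single row of that symbol. The 8 genes are 8 of 21789 rows with exactly 1 symbol, all of which were tested.

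Fetal brain RNA of 60 dams was measured on Affymetrix Mouse Gene 1.0 ST arrays, which read expression with many probes along each gene. The dams had a B6.129 strain background and were labelled wild type (WT), PON1-knockout (KO), or transgenic for human PON1, in the variant named tgHuPON1Q192 (here Q-tg) or tgHuPON1R192 (R-tg). Paraoxonase 1 (PON1) hydrolyses chlorpyrifos oxon (CPO), the toxic metabolite of the insecticide chlorpyrifos. Dams received CPO daily for 12 days, from gestational day 6 to 17, and fetal brains were taken on day 18. Daily doses, in milligrams per kilogram (mg/kg/d), were 0, 0.50 or 0.75 for KO and 0, 0.75 or 0.85 in the remaining genotypes, so there were 12 labelled groups of 5 arrays. Each array held the pooled brain RNA of 1 dam's fetuses, so the dam is the replicate, and the sex of single fetuses was not separated. Dams with outlying brain acetylcholinesterase had been left out before the random draw, and the promoter driving the transgenes is not given in the sources used here.

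The Pon1 signal went against the genotype label in 10 arrays. It lay between 4.84 and 5.67 in 15 arrays and between 9.72 and 10.14 in 45, on the deposited log2 scale. Of the 15 arrays labelled KO, 5 had Pon1 above 9, and of the 45 with another label, 5 had it below 7. The largest differences by label are therefore given as labelled and again without these 10 arrays, and the Pon1 sets are never called genotypes. The Pon1 signal can show only a label on the wrong side between KO and the rest. A wrong label among WT, Q-tg and R-tg, or between doses, would not be seen. The other 50 arrays are therefore not shown to be labelled rightly. Any pair of the 60 arrays correlated between 0.986 and 0.998. A row was called dim when its mean was below 6.54, the level under which 95% of 1035 olfactory receptor rows lay, and 15611 rows were above it. The labelled tissue was set against its markers: the 8 neuron markers averaged 11.66 in the arrays with Pon1 above 9 and the 8 radial glia markers 10.41, whereas the 6 measured liver markers averaged 6.28 and the 5 erythroid markers 6.42. Of these, the liver gene Apoa1 (mean 7.58) and the erythroid genes Alas2 (7.90) and Slc4a1 (7.28) were above the dim level. The other 5 liver and 3 erythroid markers were dim, Alb and Afp among them, though Alb reached 7.39 in 1 array.

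Promoter sequences are shown for Meg3, Peg3, Igf2 and Dlk1, since the first 3 formed the closest group of the 8 genes over the arrays and Dlk1 is the neighbour of Meg3 that did not follow it. They come from RefSeq on GRCm38.p6, run 5′ to 3′ on the gene's own strand and cover the 250 bases before an annotated start. The Meg3 window is chr12:109540746-109540995 (plus strand), the Peg3 window chr7:6730420-6730669 (minus strand), the Dlk1 window chr12:109452573-109452822 (plus strand), and the Igf2 window chr7:142657497-142657746 (minus strand), the one of its 4 windows that lies farthest along the gene. Capitals mark TGACGTCA, the palindromic cyclic AMP response element, GGGGCCCC, a core of the site bound by the PLAGL1 protein, and TATAAA.
Meg3: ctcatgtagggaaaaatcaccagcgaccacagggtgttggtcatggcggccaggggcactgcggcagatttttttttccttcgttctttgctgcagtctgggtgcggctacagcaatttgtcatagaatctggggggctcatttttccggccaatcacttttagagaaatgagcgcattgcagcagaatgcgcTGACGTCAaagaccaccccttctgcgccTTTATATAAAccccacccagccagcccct
Peg3: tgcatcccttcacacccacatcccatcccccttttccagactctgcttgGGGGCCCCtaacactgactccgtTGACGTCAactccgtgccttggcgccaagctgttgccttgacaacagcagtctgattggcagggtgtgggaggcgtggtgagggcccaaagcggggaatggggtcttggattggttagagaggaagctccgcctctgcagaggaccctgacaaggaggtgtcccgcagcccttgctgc
Igf2: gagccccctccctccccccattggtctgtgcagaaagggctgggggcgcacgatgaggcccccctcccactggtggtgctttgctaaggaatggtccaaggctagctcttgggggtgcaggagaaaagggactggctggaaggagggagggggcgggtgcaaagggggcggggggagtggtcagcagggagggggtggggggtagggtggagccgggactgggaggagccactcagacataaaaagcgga
Dlk1: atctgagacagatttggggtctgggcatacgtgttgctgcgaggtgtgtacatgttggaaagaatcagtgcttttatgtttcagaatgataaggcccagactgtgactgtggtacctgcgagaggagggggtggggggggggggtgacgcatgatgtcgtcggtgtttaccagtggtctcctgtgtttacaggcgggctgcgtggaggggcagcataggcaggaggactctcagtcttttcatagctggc

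Both strands were searched for these motifs, which were chosen after the windows had been seen. The 7 genes that matched the promoter table had 12 windows. TGACGTCA stood in 2 of the 12, a window of Meg3 and one of Peg3, and in 1.55% of all 32841 windows of that length. Its first base lay 57 bases before the Meg3 start and 178 bases before the Peg3 start. GGGGCCCC stood in the Peg3 window, 201 bases before the start, and in 0.889% of all windows. TATAAA stood in the Meg3 window on both strands with overlapping letters, beginning 29 and 25 bases before the start, and in 12.4% of all windows. The capitals near the Meg3 start therefore mark a pair of overlapping matches. TGCCGC, the letters bound by the imprinting factor ZFP57, stood in a window of Plagl1 and one of Meg3 and in 8.68% of all windows. These matches describe letters in the windows and were not tested as sites.

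The levels differed little between fetal brains. Every one of the 8 genes was above the dim level in all 60 arrays, and the highest and lowest arrays of a gene were between 1.21-fold (Peg3) and 1.51-fold (Meg3) apart. Igf2, the fetal growth factor expressed from the paternal copy in most but not all tissues, had a mean log2 signal of 10.72 (SD 0.096, n = 60), from 10.46 to 10.95. Cdkn1c, a maternally expressed inhibitor of cyclin-dependent kinases from the neighbouring domain on chromosome 7, had a mean of 9.56 (SD 0.069), from 9.43 to 9.79. Grb10, an adaptor that dampens insulin and IGF receptor signalling and is paternally expressed in neurons, had a mean of 9.70 (SD 0.060), from 9.51 to 9.80. Plagl1, a paternally expressed zinc finger transcription factor, had a mean of 9.59 (SD 0.076), from 9.43 to 9.77.

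Meg3, a maternally expressed long noncoding RNA, had the largest SD of the 8 genes. Its mean was 11.63 (SD 0.116, n = 60), from 11.38 to 11.97. Dlk1, the paternally expressed transmembrane protein gene of the same cluster on chromosome 12, had a mean of 9.28 (SD 0.113), from 9.06 to 9.56. Peg3, a paternally expressed zinc finger gene, had a mean of 10.78 (SD 0.072), from 10.62 to 10.90. Ndn, which encodes the MAGE family protein necdin of postmitotic neurons and lies in the Prader-Willi domain, had a mean of 12.46 (SD 0.070), from 12.24 to 12.59. Among the 15611 rows that were not dim, the SD of Meg3 stood at percentile 74.6, that of Dlk1 at 72.5 and that of Igf2 at 53.8. The other 5 genes varied less than most rows, with Plagl1 at percentile 23.4, Peg3 at 18.0, Ndn at 15.7, Cdkn1c at 14.6 and Grb10 at 6.81. Signals of different probes are not comparable as amounts, so no gene is ranked against another by level.

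**Figure D1:**
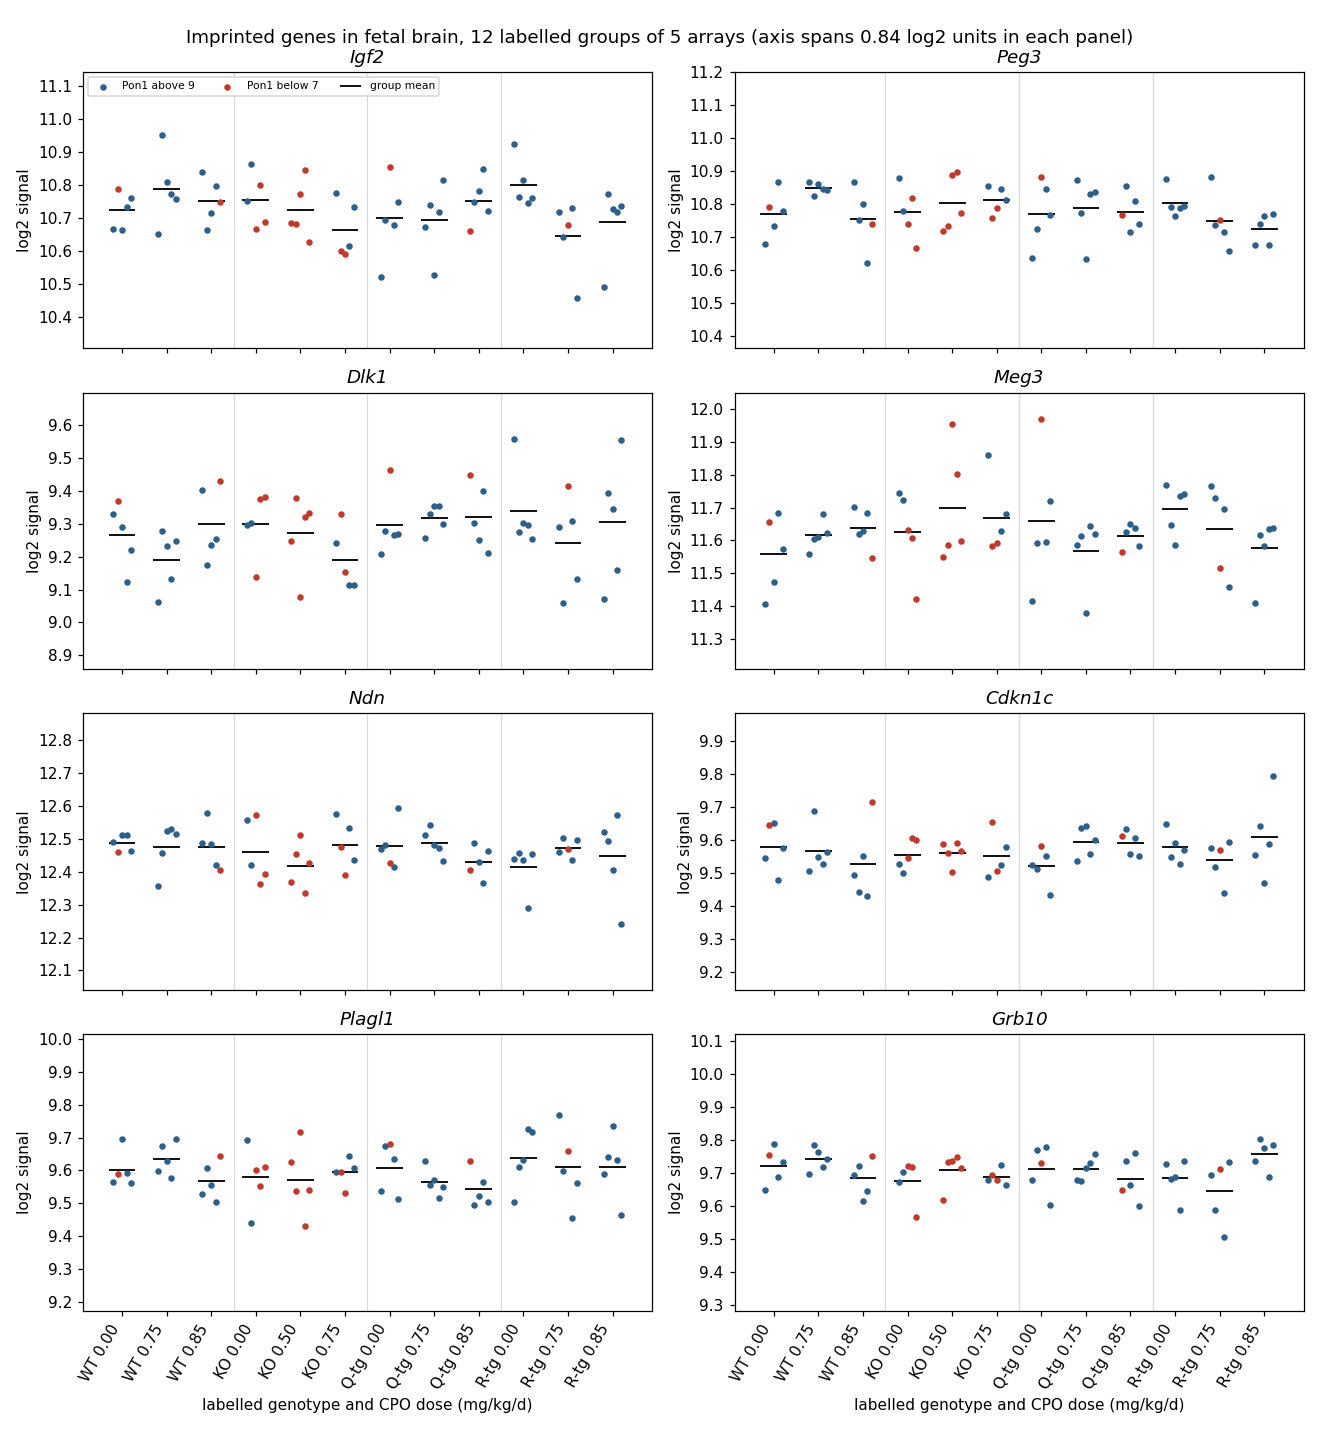
Log2 signal (vertical axis) of the 8 imprinted genes in the 12 labelled groups of 5 arrays (horizontal axis, CPO dose in mg/kg/d). Points are arrays, coloured by Pon1 signal, and lines are group means; each panel spans the same number of log2 units. Igf2 in R-tg lies between 10.46 and 10.73 at 0.75 and between 10.74 and 10.92 at dose 0.

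CPO did not change any of the 8 genes past the threshold in any labelled genotype. limma called 0 of 8 in each of 8 dose contrasts within a genotype and 2 averages over genotypes, where 0% of all 21789 rows were called. At an unadjusted p under 0.05, the count of the 8 genes was 1 in R-tg at 0.75 and 0 in the other 9 contrasts, against 363 to 2216 of all rows. The standard errors of the 8 genes in a contrast within a genotype lay between 0.040 (Grb10) and 0.074 (Meg3) log2 units, which sets the size of difference that 5 arrays against 5 could show. Without the 10 arrays against the label the count of the 8 genes called was again 0 in each contrast.

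The 1 gene at an unadjusted p under 0.05 was Igf2 in R-tg at 0.75, where 1157 of all 21789 rows were under it by limma. The log2 signal of Igf2 in the 5 R-tg controls was 10.74, 10.76, 10.76, 10.82 and 10.92. At 0.75 mg/kg/d it was 10.46, 10.64, 10.68, 10.72 and 10.73, so each exposed array lay below each control. How many of all rows separate in this way was not counted. At 0.85 mg/kg/d Igf2 was 10.49, 10.72, 10.73, 10.74 and 10.77, which overlapped the controls. The log2 difference from the controls was -0.16 (SE 0.059) at 0.75 and -0.11 (SE 0.059) at 0.85, with limma adjusted p = 0.898 and 0.987, so neither passed. Both doses share the same controls. The R-tg controls had the highest group mean of Igf2 among the 12 groups, 10.80 ± 0.073 (SD, n = 5), and R-tg at 0.75 the lowest, 10.64 ± 0.11 (SD, n = 5). Without the 10 arrays against the label the difference at 0.75 was -0.17, with limma adjusted p = 0.715, and over all settings tried but single left-out arrays the adjusted p ran from 0.618 to 1.000. At 0.85 it was again -0.11, with limma adjusted p = 0.983.

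Markers of several cell types, neurons among them, also leaned lower in R-tg. At 0.75 all 10 markers of meninges and fibroblasts were lower than in the controls, with a median log2 difference of -0.11, and so were all 8 of endothelium and pericytes, with a median of -0.08, beside -0.02 over all rows. At 0.85 the counts were 9 of 10 and 6 of 8, where the median over all rows was -0.0084. Of the 8 neuron markers, 7 were lower at 0.75 and 6 at 0.85, with a median of -0.03 each time. None of these markers was called. The list mean of meninges and fibroblasts ran from 8.40 to 8.59 in the R-tg controls and from 8.32 to 8.44 at 0.75, and that of endothelium and pericytes from 8.60 to 8.89 and from 8.57 to 8.74, so each list overlapped between these groups. The group median of the list mean was lower at 0.75 than in the controls for every marker list but skeletal muscle, liver, and cartilage and bone. The part of these lists in the difference of Igf2 was not tested.

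In R-tg at 0.75 mg/kg/d, 7 of the 8 differences were negative, against 3 to 5 in the other 7 contrasts within a genotype, the exception being Ndn at 0.06. The median log2 difference of the 8 genes was -0.05, beside -0.02 over all rows. In WT at 0.75 the largest difference relative to its error was that of Peg3. Peg3 lay at 10.68, 10.73, 10.78, 10.79 and 10.87 in the WT controls and between 10.82 and 10.87 in all 5 arrays at 0.75, the narrowest group of that gene. The difference was 0.08 (SE 0.047), with limma adjusted p = 0.540, and the ranges overlapped. Without the arrays against the label it was 0.08, with limma adjusted p = 0.482. In the same contrast 6 of 8 neuron markers were higher, with a median of 0.03 beside 0.0045 over all rows. Of the markers of meninges and fibroblasts 9 of 10 were higher, with a median of 0.13. WT at 0.75 replicate 2 had the highest list mean of meninges and fibroblasts of all arrays, 9.06. Without that array the difference of Peg3 was 0.08, with limma adjusted p = 0.574.

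In WT at 0.85 the first by that measure was Cdkn1c, at -0.05 (SE 0.046), and -0.08 without the arrays against the label. In KO at 0.50 it was Meg3, at 0.07 (SE 0.074), and 0.14 without them. In KO at 0.75 it was Dlk1, at -0.11 (SE 0.071), and -0.06 without them. All 8 markers of endothelium and pericytes were lower in that contrast, where the median over all rows was -0.02. In Q-tg the first was Cdkn1c at both doses, at 0.07 (SE 0.046) each time. Without the arrays against the label it was 0.09 at 0.75 and 0.08 at 0.85. At 0.85 all 8 markers of endothelium and pericytes were higher, where the median over all rows was 0.01. None of these 5 differences of Cdkn1c, Meg3 and Dlk1 passed, with limma adjusted p from 0.998 to 1.000 as labelled and without the arrays against the label. In KO the arrays left out were replicates 1, 4 and 5 at 0.75 and replicates 1 and 2 at dose 0. The KO values without them therefore rest on few arrays. The part of the markers was not tested. Averaged over the 4 labelled genotypes, the difference of Dlk1 at 0.75 was -0.07 (SE 0.036), with limma adjusted p = 0.966, and -0.05 without the arrays against the label. The largest difference relative to its error at 0.85 over WT, Q-tg and R-tg was that of Plagl1, -0.04 (SE 0.029), with limma adjusted p = 1.000, and -0.05 without them.

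The labelled genotypes at dose 0 did not differ in the 8 genes past the threshold either. limma called 0 of 8 in each of 4 contrasts, with 0% of all rows called and 362 to 1183 rows at an unadjusted p under 0.05, none of them among the 8 genes. The largest difference was that of Meg3 between R-tg and WT controls, 0.14 (SE 0.074), with limma adjusted p = 1.000. Meg3 averaged 11.70 ± 0.076 (SD, n = 5) in the R-tg controls and 11.56 ± 0.12 (SD, n = 5) in the WT controls, and the groups overlapped, at 11.59 to 11.77 and 11.41 to 11.68. Without the arrays against the label it was 0.16, with limma adjusted p = 0.896. Relative to its error, the largest difference between KO and WT was that of Grb10, -0.05 (SE 0.040), between Q-tg and WT that of Meg3, 0.10 (SE 0.074), and between R-tg and Q-tg that of Igf2, 0.10 (SE 0.059), with limma adjusted p from 0.861 to 1.000. Without the arrays against the label these were -0.05, 0.05 and 0.14, with limma adjusted p from 0.819 to 1.000. Of all rows 29 were then called between KO and WT and 79 in the test for any difference among the groups, none of them among the 8 genes. The test for any difference among the 12 groups called 0 of 8 and 0% of all rows, with 1054 rows and 0 of the 8 genes at an unadjusted p under 0.05, and the smallest limma adjusted p of the 8 was 0.950. Groups next to each other in the order of a gene's means were therefore not told apart.

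Between the arrays with Pon1 below 7 and above 9, none of the 8 imprinted genes shifted past the threshold. limma called 0 of 8 in this comparison, where 11.2% of all 21789 rows were called, 8.15% higher and 3.05% lower below 7. A fit of only the 15611 rows that were not dim, all 8 genes among them, called 2711 rows, a larger share, and none of the 8. None of the 8 genes reached an unadjusted p under 0.05, against 5191 of all rows. None of the 8 genes lies on chromosome 6, which carries Pon1. The median log2 difference of the 8 genes was 0.0016, beside 0.0079 over all rows.

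Dlk1 had the largest difference. It lay between 9.08 and 9.46 with a median of 9.37 in the 15 arrays below 7, and between 9.06 and 9.56 with a median of 9.27 in the 45 arrays above 9. The ranges overlapped almost wholly, and the log2 difference was 0.06 (SE 0.033, 95% interval -0.0039 to 0.13), with limma adjusted p = 0.246. In the 15 arrays labelled KO the difference was likewise 0.06 (SE 0.057), with limma adjusted p = 0.742. In the 5 arrays below 7 not labelled KO, Dlk1 was 9.37, 9.42, 9.43, 9.45 and 9.46, and in the 40 arrays above 9 with the same kind of label it ran from 9.06 to 9.56 with a median of 9.27. In those 45 arrays the difference was 0.16 (SE 0.049), with limma adjusted p = 0.0930. With the 12 labelled groups as terms it was 0.13 (SE 0.041), with limma adjusted p = 0.0674, and in the 50 arrays whose label and Pon1 go together it was 0.0047 (SE 0.038), with limma adjusted p = 0.971. None of these passed, and the differences between these subsets were not tested.

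Ndn leaned the other way. Its values below 7 ran from 12.33 to 12.57 with a median of 12.43, and above 9 from 12.24 to 12.59 with a median of 12.48. The difference was -0.04 (SE 0.021, 95% interval -0.08 to 0.00080), with limma adjusted p = 0.222, and the sets overlapped. For Cdkn1c the medians were 9.59 below 7 and 9.55 above 9, with ranges of 9.50 to 9.72 and 9.43 to 9.79. Its difference was 0.03 (SE 0.021, 95% interval -0.01 to 0.08), with limma adjusted p = 0.342, and 0.08 (SE 0.027) with the labelled groups as terms, with limma adjusted p = 0.0723, the lowest of its alternatives, the highest being 0.878.

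The other 5 genes had differences close to 0. Igf2 differed by -0.01 (95% interval -0.07 to 0.04), Meg3 by 0.01 (-0.06 to 0.08), Plagl1 by 0.0032 (-0.04 to 0.05), Peg3 by -0.00096 (-0.05 to 0.04) and Grb10 by -5.3e-07 (-0.04 to 0.04), each in log2 units. Meg3 had its highest arrays below 7, at 11.95 and 11.97, but its median there was 11.59 against 11.63 above 9. The arrays also differed in the markers of the hindbrain and spinal cord, whose list mean ran from 6.19 to 6.89 below 7 and from 6.22 to 7.26 above 9, with 5 of its 8 measured genes called lower below 7. The pituitary list ran from 6.10 to 6.91 below 7 and from 5.93 to 7.04 above 9, with 0 of 7 called, and 4 of the 7 were above the dim level. Of its hormone genes, Gh ran from 6.42 to 10.73 over the arrays and differed by 0.96 (SE 0.40), with limma adjusted p = 0.112. Cga differed by 0.12 (SE 0.093) and Pomc by 0.07 (SE 0.060), and Prl, Tshb and Fshb were dim. The part of these lists in the differences of the 8 genes was not tested, apart from the covariate that follows. With the hindbrain and spinal cord list as a covariate the difference of Dlk1 was 0.08 (SE 0.038), with limma adjusted p = 0.274. In bulk tissue, fewer cells of a type and less RNA per cell cannot be told apart.

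**Figure D2:**
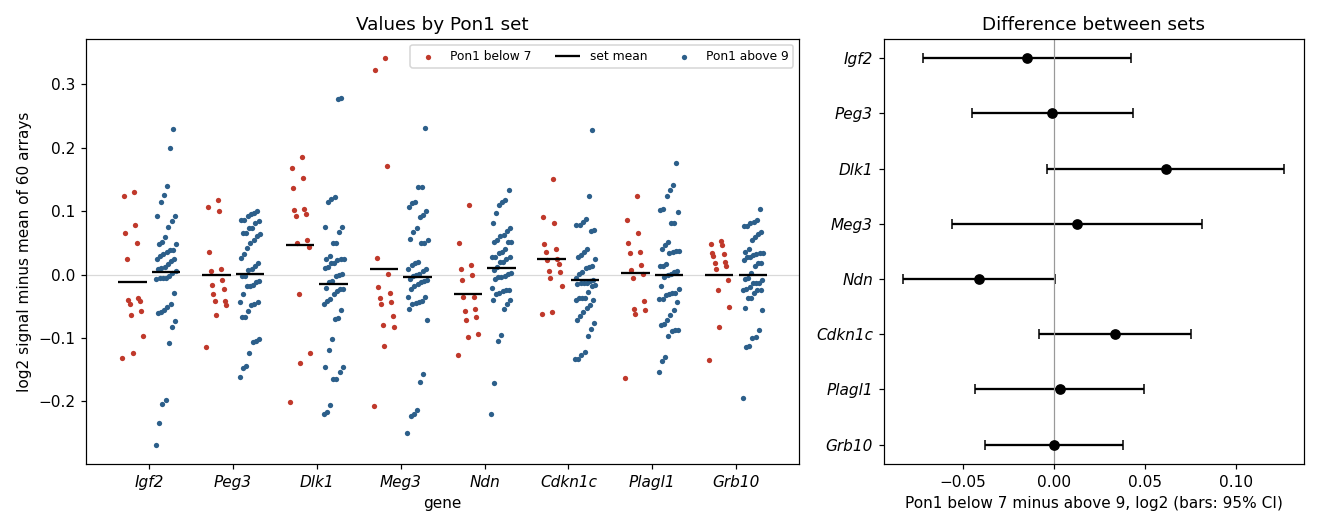
Left, log2 signal of each gene minus its mean over the 60 arrays, in the 15 arrays with Pon1 below 7 and the 45 with Pon1 above 9 (points, arrays; lines, set means). Right, the log2 difference between the sets with its 95% confidence interval (CI) from limma; the interval of each of the 8 genes includes 0.

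Imprinted genes outside the 8 did differ between the Pon1 sets. Of 60 other imprinted genes listed, 48 were measured, and limma called 12 higher and 4 lower in the arrays with Pon1 below 7, where 8.15% of all rows were called higher and 3.05% lower, with a median log2 difference of 0.013 over the 48 genes, beside 0.0079 over all rows. Of the 48, 45 were not dim, and in the fit of only rows that were not dim the share called was larger, 2711 of 15611. The Peg10 cluster lies on chromosome 6 beside Pon1: by gene order on GRCm38.p6, Ppp1r9a is a direct neighbour of Pon1 among protein coding genes, and 2 such genes separate Pon1 from Peg10, 2 from Asb4, 8 from Dlx5 and 10 from Calcr. Asb4 averaged 7.83 below 7 and 6.62 above 9, the widest difference of the list. Calcr was higher by 0.50 (SE 0.025), Peg10, a retrotransposon-derived gene needed by the placenta, by 0.28 (SE 0.029) and Ppp1r9a by 0.09 (SE 0.025) below 7, and Dlx5, a homeobox gene, differed by -0.25 (SE 0.029), and these 5 all stood past the threshold of limma's adjusted p. Sgce, also in the cluster, was not called, at 0.02 (SE 0.026, limma adjusted p = 0.686). Of the 10 measured genes of the list on chromosome 6, 5 were called higher and 2 lower, and of the 38 elsewhere, 7 and 2. The called differences elsewhere ran from -0.24 (Kcnk9, a potassium channel gene) to 0.12 (Tssc4). Whether the position beside Pon1 has a part in these differences was not tested.

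Of the close neighbours of the 8 genes, some passed and some did not. Magel2, which shares the Prader-Willi domain with Ndn, differed by 0.03 (SE 0.021), Mkrn3 by 0.02 (SE 0.031) and Peg12 by 0.04 (SE 0.038). Rian, a noncoding RNA gene downstream of Meg3, differed by -0.09 (SE 0.041), Rtl1 by 0.0077 (SE 0.028), Dio3 by 0.05 (SE 0.045) and Begain by 0.03 (SE 0.029). Zim1 and Usp29, neighbours of Peg3, differed by 0.07 (SE 0.026) and -0.02 (SE 0.025). None of these 9 was called, with limma adjusted p from 0.0632 (Zim1) to 0.910 (Rtl1). In the domains of Igf2 and Cdkn1c, 10 other genes of the list were measured and 4 were called. Th was higher by 0.11 (SE 0.034), Nap1l4 by 0.07 (SE 0.017), Tssc4 by 0.12 (SE 0.031) and Osbpl5 by 0.08 (SE 0.023) below 7. The other 6, Ins2, Ascl2, Kcnq1, Phlda2, Slc22a18 and Cd81, were not called, with differences from -0.03 to 0.04 and limma adjusted p from 0.219 to 0.942.

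Of 20 genes of the insulin-like growth factor system, 19 were measured, and limma called 4 higher and 0 lower in the arrays with Pon1 below 7, where 8.15% of all rows were called higher and 3.05% lower. They were Igf2bp1, an RNA-binding protein gene of the fetus that binds Igf2 mRNA, at 0.14 (SE 0.042), Igfbp3, a binding protein gene, at 0.10 (SE 0.031), Pappa2, a protease gene that frees IGFs from binding proteins, at 0.10 (SE 0.026), and Irs2, an adaptor gene of the insulin receptor, at 0.07 (SE 0.021). Igfbp2, another binding protein gene, differed by 0.08 (SE 0.029) and was not called, with limma adjusted p = 0.0825. Of the 19 genes, 17 were not dim, and in the fit of only rows that were not dim the share called was larger, 2711 of 15611. The receptors were not called: Igf1r differed by 0.06 (SE 0.025), Insr by -0.0048 (SE 0.024) and Igf2r, itself imprinted, by 0.04 (SE 0.026). In the 14 contrasts of dose and labelled genotype, 0 of these 19 genes and 0 of the 48 other imprinted genes were called by limma, with 0 to 3 and 0 to 5 genes per contrast at an unadjusted p under 0.05. The direction of the IGF system turned with the contrast. Of its 19 differences 16 were negative in R-tg at 0.75 mg/kg/d, with a median of -0.07 beside -0.02 over all rows, and 16 in KO at 0.75, with a median of -0.06 beside -0.02. In contrast, 16 were positive in Q-tg at 0.85, with a median of 0.05 beside 0.01, and 14 in WT at 0.75, with a median of 0.03 beside 0.0045. In the other 4 contrasts within a genotype 7 to 12 were positive. Of the 48 differences of the other imprinted genes, 32 were negative in R-tg at either dose, and 20 to 27 in the other 6 contrasts. The medians in R-tg were -0.03 at 0.75 and -0.03 at 0.85, beside -0.02 and -0.0084 over all rows.

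Some of the 8 genes varied together over the arrays. Of their 28 pairs, 8 passed a permutation test of Pearson's r over 60 arrays (100000 resamples, 2-sided, Benjamini-Hochberg over the 28 pairs), 6 with positive and 2 with negative r, and 9 had an unadjusted p under 0.05. The share of all pairs of rows that would pass was not counted, so these counts are not shown to be particular to imprinted genes. Among all rows that were not dim, 4.26% had r above 0.5 with Peg3, 2.93% with Meg3, 4.59% with Igf2 and 8.56% with Dlk1. Over all 28 pairs r ran from -0.42 to 0.64 with a median of 0.06. Peg3, Meg3 and Igf2 formed a group in which each pair passed. Igf2 and Peg3 lie far apart on chromosome 7, and Meg3 lies on chromosome 12.

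Peg3 and Meg3 had the highest r, 0.64 (permutation p = 1e-05, the smallest 100000 resamples can give; adjusted p = 0.000140), with Spearman's rho of 0.56 (permutation p = 1e-05, likewise the smallest possible). The r was 0.67 without the 2 arrays farthest from the median of Peg3 and 0.70 for deviations from the labelled group means. The arrays highest in Meg3, Q-tg at 0 replicate 3 (11.97) and KO at 0.50 replicate 3 (11.95), were not among the 2 left out. With each array left out in turn, r ran from 0.61 to 0.69. It was 0.56 in the 45 arrays with Pon1 above 9 and 0.90 in the 15 below 7. The arrays highest in Peg3 included KO at 0.50 replicates 3 and 4, at 10.89 and 10.90, and replicate 3 of that group was also among the highest in Meg3, at 11.95. Q-tg at 0.75 replicate 3 was the lowest array of Meg3, at 11.38, and among the lowest of Peg3, at 10.63.

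Igf2 and Meg3 followed, with r = 0.61 (permutation p = 1e-05, adjusted p = 0.000140) and rho = 0.59 (permutation p = 1e-05). The r was 0.55 without the 2 arrays farthest from the median of Igf2, 0.72 within labelled groups, 0.63 in the arrays above 9 and 0.64 in those below 7. For Igf2 and Peg3 r was 0.52 (permutation p = 2.0e-05, adjusted p = 0.000187) and rho 0.47 (permutation p = 0.000160). It was 0.45 without the 2 farthest arrays, 0.54 within groups, 0.49 above 9 and 0.66 below 7. In the 15 arrays below 7 only the pair of Peg3 and Meg3 passed, and the pairs of Igf2 with Meg3, Igf2 with Peg3 and Dlk1 with Cdkn1c had an adjusted permutation p of 0.0594 each.

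A second set of relations joined Dlk1 and Cdkn1c. Their r was 0.51 (permutation p = 5.0e-05, adjusted p = 0.000350) and their rho 0.50 (permutation p = 6.0e-05). The r was 0.40 without the 2 arrays farthest from the median of Dlk1, 0.55 within groups, 0.44 above 9 and 0.65 below 7. Cdkn1c also went with Grb10, at r = 0.43 (permutation p = 0.000720, adjusted p = 0.00397) and rho = 0.37 (permutation p = 0.00342), with r = 0.38 without the 2 farthest arrays and 0.42 within groups. In the 15 arrays below 7 that r was 0.07, beside 0.51 above 9, a difference that was not tested. Dlk1 and Igf2 had r = 0.39 (permutation p = 0.00209, adjusted p = 0.00836) and rho = 0.30 (permutation p = 0.0193), and it passed neither by rank (adjusted permutation p = 0.0772) nor without the 2 farthest arrays, where r was 0.30 (adjusted permutation p = 0.0878).

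Ndn ran against Dlk1 and Cdkn1c. With Dlk1 r was -0.42 (permutation p = 0.000850, adjusted p = 0.00397) and rho -0.42 (permutation p = 0.00122), with r = -0.34 without the 2 farthest arrays and -0.42 within groups. With Cdkn1c r was -0.34 (permutation p = 0.00890, adjusted p = 0.0311) and rho -0.25 (permutation p = 0.0526). That pair rested on few arrays: r was -0.19 without R-tg at 0.85 replicate 5, which had the lowest Ndn, 12.24, and the highest Cdkn1c, 9.79, and the call was also lost without Q-tg at 0 replicate 5 (-0.29), WT at 0.85 replicate 2 (-0.30) or KO at 0.75 replicate 1 (-0.32). It did not pass by rank (adjusted permutation p = 0.164), and with arrays centred on their median its r was -0.10.

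Pairs from the same cluster or from adjoining domains did not pass. Dlk1 and Meg3, which share a control region and are expressed from opposite copies, had r = 0.02 (permutation p = 0.866, adjusted p = 0.965) and rho = -0.04 (permutation p = 0.768). Igf2 and Cdkn1c, from neighbouring domains, had r = 0.09 (permutation p = 0.477, adjusted p = 0.743) and rho = 0.11 (permutation p = 0.415). Plagl1, whose protein is a transcription factor with other imprinted genes among its targets, had no pair that passed, and its r ran from -0.14 with Dlk1 to 0.21 with Grb10. The first principal component of all other rows took 29.4% of the variance between arrays. With it removed, the r of Peg3 and Meg3 was 0.62, of Igf2 and Meg3 0.60, of Igf2 and Peg3 0.52 and of Dlk1 and Cdkn1c 0.53.

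**Figure D3:**
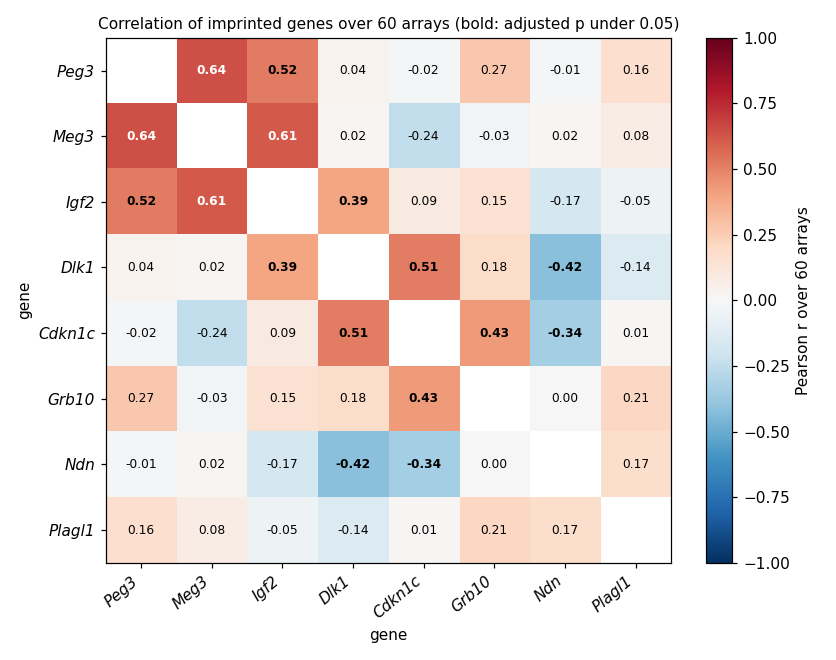
Pearson r of each pair of the 8 genes over 60 arrays, coloured from -1 to 1, with the value printed in each cell and in bold where the adjusted permutation p was under 0.05. Peg3, Meg3 and Igf2 form a block with r from 0.52 to 0.64, and Dlk1 and Meg3 of the same cluster stand at 0.02.

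**Figure D4:**
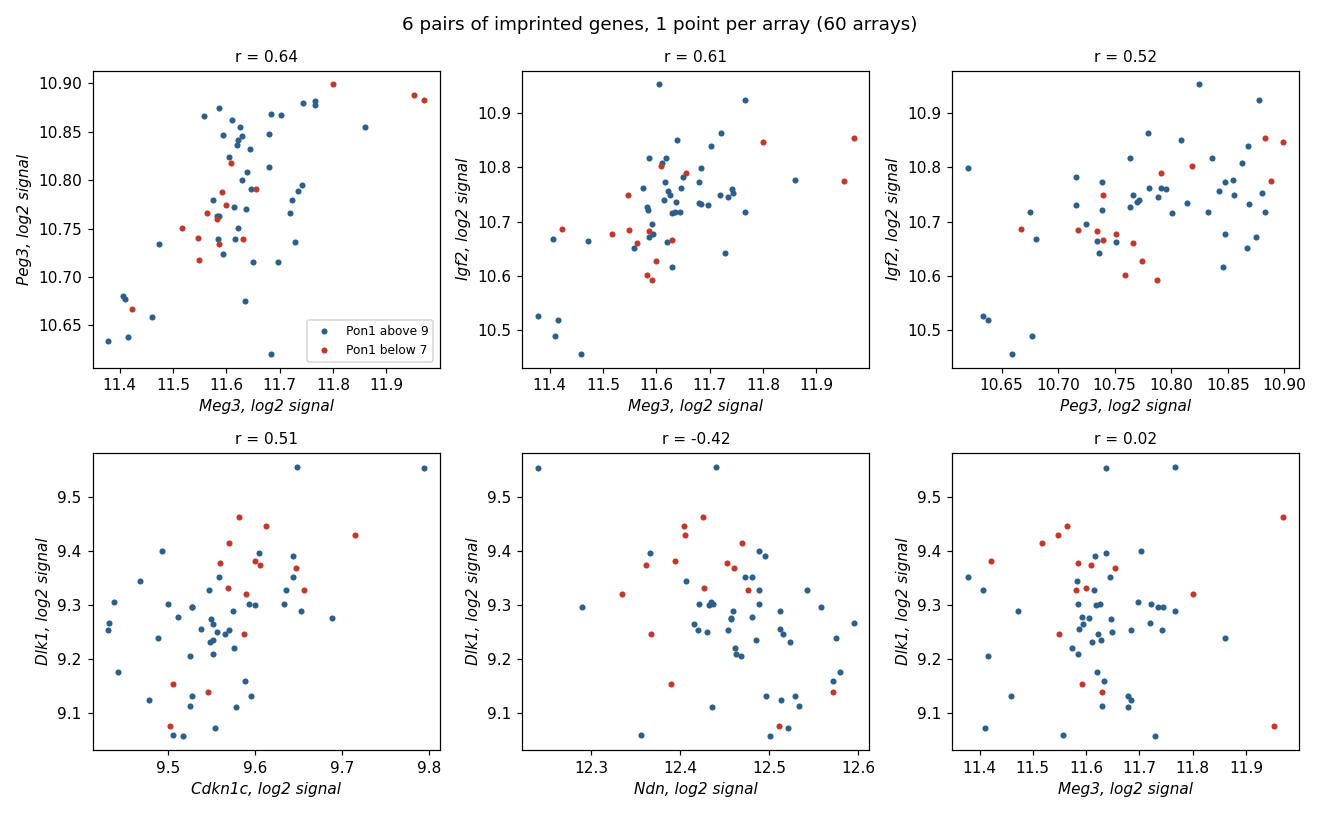
Log2 signal of one gene against another, 1 point per array, for 6 pairs; points are coloured by Pon1 below 7 (15 arrays) or above 9 (45 arrays), and r over the 60 arrays is above each panel. The points of both sets mix, and r runs from -0.42 for Ndn and Dlk1 to 0.64 for Meg3 and Peg3.

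Small RNA genes between Meg3 and the end of the Mirg region, a set chosen after values had been seen, varied with Meg3. They lie in introns or downstream of the long maternal transcripts of the cluster. The table of genes holds 58 miRNA genes there, 40 had a row and 26 of these were not dim. Of the 26, 24 had a positive r with Meg3, with a median of 0.37 and a range of -0.20 to 0.70, beside a median of 0.0081 over all rows that were not dim. With Dlk1 the median of the 26 was 0.03. An array row of this kind reads the hairpin gene and its surroundings in total RNA, and not the mature miRNA.

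The mature miRNAs that the table holds for the 3 rows that followed Meg3 most closely and for the row that differed most between the Pon1 sets are shown with the seed, bases 2 to 8, in capitals, from RefSeq on GRCm38.p6. The row of Mir337 had r = 0.70 with Meg3 (rho 0.59), Mir329 0.64 (rho 0.52) and Mir341 0.64 (rho 0.67) over 60 arrays. No seed is shared between these genes.
mmu-miR-337-5p: cGGCGUCAugcaggaguugauu
mmu-miR-337-3p: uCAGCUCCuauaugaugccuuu
mmu-miR-329-5p: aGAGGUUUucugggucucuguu
mmu-miR-329-3p: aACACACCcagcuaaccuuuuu
mmu-miR-341-5p: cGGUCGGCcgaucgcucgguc
mmu-miR-341-3p: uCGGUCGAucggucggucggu
mmu-miR-485-3p: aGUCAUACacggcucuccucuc

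Some of these rows differed between the Pon1 sets, a comparison in which Meg3 did not pass. Of the 26, 5 were called higher and 0 lower below 7, where 8.15% of all rows were called higher and 3.05% lower, and 1 dim row, Mir412, was called higher as well. In the fit of only rows that were not dim, as the 26 are, the share called was larger, 2711 of 15611. Mir485 lay between 7.76 and 8.15 with a median of 7.88 in the arrays below 7, and between 7.52 and 7.88 with a median of 7.66 above 9. The ranges overlapped in part, and the log2 difference was 0.23 (SE 0.027), with limma adjusted p = 3.0e-09, and adjusted p = 0.000145 with the labelled groups as terms. Mir487b was higher by 0.21 (SE 0.037, limma adjusted p = 5.8e-05), Mir679 by 0.13 (SE 0.034), Mir134 by 0.11 (SE 0.029) and Mir668 by 0.09 (SE 0.025). With the labelled groups as terms Mir487b passed, with limma adjusted p = 0.0400, and Mir679, Mir134 and Mir668 did not, at 0.255, 0.0858 and 0.378.

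The genes most like each of the 8, among rows that were not dim and had a gene name outside the predicted and small RNA symbols, were taken by Pearson r over the 60 arrays and are given as a description. For Meg3 they were Ncam1 (0.84), Srgap3 (0.83) and Lama1 (0.83), of which Ncam1 encodes a neural cell adhesion molecule and Lama1 a laminin chain. For Peg3 they were Syne1 (0.78), Pcdh15 (0.78) and Cdr1os (0.73). For Igf2 they were Col12a1 (0.79), a collagen gene, Egflam (0.79), an extracellular matrix gene, and Msi2 (0.78). For Grb10 all 3 were genes of dividing cells: Mki67 (0.74), Top2a (0.67) and Cenpe (0.66). For Ndn they were Uqcrb (0.87), a subunit gene of the respiratory chain, Prdx1 (0.86) and Marcksl1 (0.85). For Dlk1 they were Reep4 (0.74), Slc25a39 (0.73) and Pnoc (0.71), for Cdkn1c Mdk (0.66), Cdca2 (0.66) and Calcoco1 (0.65), and for Plagl1 Nova1 (0.53), Rps6 (0.53) and Haus5 (0.52), the lowest set of the 8. Among 45 other imprinted genes that were not dim, Igf2 had its highest r with Igf2r (0.60) and Dlk1 with H13 (0.60). Peg3 had it with its neighbour Zim1 (0.59), then Rian (0.58), and Ndn with Sgce (0.55). Meg3 had it with Airn (0.52), Cdkn1c with Tssc4 of its own domain (0.51), Grb10 with Zdbf2 (0.39) and Plagl1 with Copg2 (0.33). Of the 45, r was above 0.5 for 2 with Igf2, 5 with Peg3, 5 with Dlk1 and 1 each with Meg3, Ndn and Cdkn1c. Of all rows that were not dim, the shares were 4.59%, 4.26%, 8.56%, 2.93%, 4.96% and 2.57%.

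The 8 genes also followed markers of cell types, some of them shared. Each gene was set against the mean log2 signal of 13 marker lists and 3 measures of the array, which gave 128 relations, and 35 of them passed the permutation test (100000 resamples, Benjamini-Hochberg over the 128). The share of all rows that would pass with the same lists was not counted, so these counts are not shown to be particular to the 8 genes. The endothelium and pericytes list passed with 6 of the 8 genes, each time with positive r: Igf2, Peg3, Dlk1, Meg3, Cdkn1c and Grb10. The microglia list passed with 5, positively with Igf2, Dlk1 and Cdkn1c and negatively with Ndn and Plagl1. The lists of meninges and fibroblasts and of radial glia each passed with Igf2, Peg3 and Grb10. The skeletal muscle list passed negatively with Igf2 and Peg3, and the erythroid list negatively with Peg3. The hypothalamus list passed negatively with Peg3 and Grb10 and positively with Dlk1. The choroid plexus list passed positively with Igf2 and Dlk1, and the hindbrain and spinal cord list with Igf2. Igf2 went with the markers of meninges and fibroblasts, at r = 0.66 (permutation p = 1e-05, adjusted p = 0.000427; rho 0.72, permutation p = 1e-05), and of endothelium and pericytes, at r = 0.54 (permutation p = 1e-05, adjusted p = 0.000427; rho 0.55, permutation p = 3.0e-05). Without the 2 arrays farthest from the median of the marker list these were 0.66 and 0.51, and within labelled groups 0.63 and 0.50. All 10 markers of meninges and fibroblasts were above the dim level. With the skeletal muscle list Igf2 had r = -0.32 (adjusted permutation p = 0.0473), and -0.24 without the 2 farthest arrays.

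Peg3 went with the neuron markers, at r = 0.65 (permutation p = 1e-05, adjusted p = 0.000427; rho 0.58, permutation p = 1e-05), with 0.60 without the 2 farthest arrays and 0.58 within groups. It also went with meninges and fibroblasts, at 0.43 (permutation p = 0.000300, adjusted p = 0.00640; rho 0.53, permutation p = 3.0e-05), with 0.56 and 0.37, and with endothelium and pericytes, at 0.39 (permutation p = 0.00168, adjusted p = 0.0154; rho 0.36, permutation p = 0.00517), with 0.39 and 0.43. Peg3 had negative r of like size with skeletal muscle (-0.41, adjusted permutation p = 0.0124), hypothalamus (-0.40, 0.0124) and erythroid markers (-0.38, 0.0219). Grb10 went with the radial glia markers, at r = 0.55 (permutation p = 3.0e-05, adjusted p = 0.000960; rho 0.43, permutation p = 0.000540), with 0.49 and 0.51. Its r was 0.37 with meninges and fibroblasts (permutation p = 0.00592, adjusted p = 0.0361; rho 0.33, permutation p = 0.00958), with 0.37 and 0.37, and 0.32 with endothelium and pericytes (permutation p = 0.0123, adjusted p = 0.0473; rho 0.31, permutation p = 0.0155), with 0.29 and 0.45. With the hypothalamus list the r of Grb10 was -0.32 (adjusted permutation p = 0.0473).

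Dlk1 went with endothelium and pericytes at 0.49 (permutation p = 8.0e-05, adjusted p = 0.00205; rho 0.36, permutation p = 0.00528), with 0.33 and 0.53, and with the pituitary list at 0.42 (permutation p = 0.000730, adjusted p = 0.0104; rho 0.49, permutation p = 0.000110), with 0.38 and 0.39. Cdkn1c went with endothelium and pericytes at 0.44 (permutation p = 0.000460, adjusted p = 0.00841; rho 0.42, permutation p = 0.000730), with 0.32 and 0.47. Meg3 had 2 relations that passed, with the neuron list at 0.34 (permutation p = 0.00729, adjusted p = 0.0373; rho 0.31, permutation p = 0.0147), with 0.40 and 0.38, and with endothelium and pericytes at 0.32 (permutation p = 0.0135, adjusted p = 0.0495; rho 0.26, permutation p = 0.0465), with 0.29 and 0.35. Its r with meninges and fibroblasts, 0.30, did not pass (permutation p = 0.0284, adjusted p = 0.0932). By rank that relation was closer (rho 0.49, permutation p = 5.0e-05), and r was 0.47 without the 2 farthest arrays and 0.38 within groups. Ndn had a negative r with the microglia list, -0.44 (permutation p = 0.000530, adjusted p = 0.00848; rho -0.43, permutation p = 0.000900), with -0.35 and -0.46, and so had Plagl1, -0.38 (permutation p = 0.00280, adjusted p = 0.0217; rho -0.42, permutation p = 0.00102), with -0.34 and -0.39. The part of these marker lists in the relations between the imprinted genes was not tested.

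**Figure D5:**
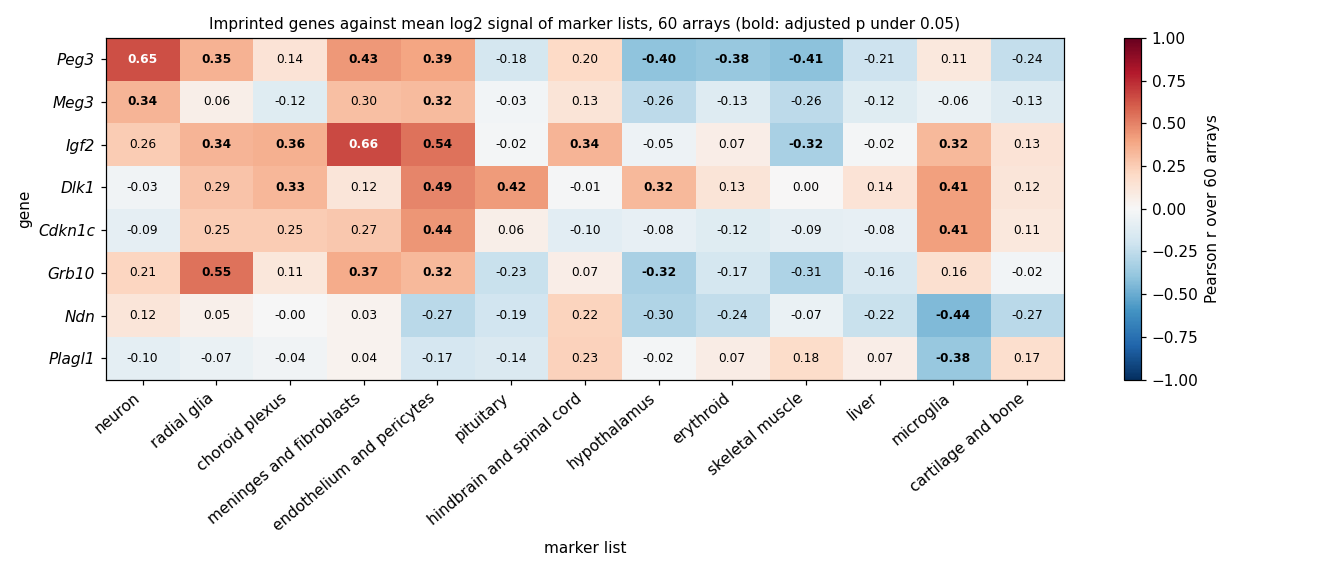
Pearson r over 60 arrays between each of the 8 genes (rows) and the mean log2 signal of 13 marker lists (columns), coloured from -1 to 1, with the value in each cell and in bold where the adjusted permutation p was under 0.05. The highest cells are Igf2 with meninges and fibroblasts at 0.66, Peg3 with neurons at 0.65 and Grb10 with radial glia at 0.55.

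The array's lower quartile of signal, which ran from 5.92 to 6.26, went with some of the 8 genes. Its r was -0.37 with Peg3 (permutation p = 0.00347, adjusted p = 0.0234; rho -0.33, permutation p = 0.0110), -0.35 with Ndn (permutation p = 0.00708, adjusted p = 0.0373; rho -0.36, permutation p = 0.00558) and -0.33 with Grb10 (permutation p = 0.00982, adjusted p = 0.0433; rho -0.28, permutation p = 0.0289). Without the 2 farthest arrays these were -0.31, -0.36 and -0.30. The first principal component passed with the same genes, at r = -0.37 with Peg3, -0.38 with Ndn and -0.34 with Grb10. The Xist signal, which follows the share of female fetuses in a pool, had no relation that passed with any of the 8 genes, with r from -0.10 to 0.15.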

How the data were processed

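The deposited values are log2 signals that the authors made with RMA in oligo 1.22.0 under R 2.15.1, per the submitters' processing notes and a session record deposited with them. They were used as deposited, with no other background correction, and no column of the value table lay outside the 60 arrays. GEO's platform annotation gave 1 symbol to 21789 of 28858 rows, several to 1621 and none to 5448. The members, marker lists and lists of other genes were chosen with earlier results of these data known.

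The rows with 1 symbol were fitted in limma 3.58.1 (R 4.3.3) with a mean for each labelled group. This gave 14 contrasts and the test for any difference, and a second model compared the arrays with Pon1 below 7 and above 9. Tests were 2-sided with Benjamini-Hochberg adjustment over the 21789 rows and a threshold of 0.05. The Pon1 sets were defined by a measured signal. Correlations were tested over arrays with numpy 2.4.6 and 100000 permutations. Pairs were to be 45 for 10 genes, but 8 genes could be measured, which gives 28. For each contrast, the gene with the largest difference relative to its error among the 8 was named, and of each list the genes with the largest differences. Other genes named were chosen after their values were seen. Gene and promoter tables were RefSeq's for GRCm38.p6; the build behind the array design is not given in the sources used here. The fits and permutation tests were tested on simulated data. Alternatives were another variance prior, filters, centring, covariates, blocks and left-out arrays, and 6 of them were added after the data were seen. The number of arrays limits the precision.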

Additional observations from a re-analysis of the deposited data

Results flagged for a closer look

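In groups of 5 arrays, 96 combinations of a gene and a group were examined for an array that stood apart from the other 4, and 9 did, where chance alone gives about 1 in 20. All values are log2 signals.

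Igf2 was 10.49 in R-tg at 0.85 replicate 1, with the other 4 arrays between 10.72 and 10.77, and the same array stood apart for Meg3, at 11.41 against 11.58 to 11.64. R-tg at dose 0 replicate 1 stood apart for Peg3, at 10.88 against 10.76 to 10.80, and for Dlk1, at 9.56 against 9.25 to 9.30. Dlk1 was 9.46 in Q-tg at dose 0 replicate 3, with the others between 9.21 and 9.28, and that array had Pon1 below 7. Meg3 was 11.38 in Q-tg at 0.75 replicate 3, with the others between 11.59 and 11.64. Ndn was 12.29 in R-tg at dose 0 replicate 4, with the others between 12.44 and 12.46. Plagl1 was 9.70 in WT at dose 0 replicate 3, with the others between 9.56 and 9.59. Grb10 was 9.62 in KO at 0.50 replicate 1, with the others between 9.71 and 9.75, and that array had Pon1 below 7.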

How the results depend on the processing

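The count of the 8 genes called was 0 in every contrast and in the comparison of Pon1 sets under every alternative run. The count of all rows called in the comparison of Pon1 sets, 2440 as reported, was 3670 with the lower quartile as covariate, 1022 with the labelled groups as terms, 96 in arrays labelled KO, 359 in arrays not labelled KO, 740 where set and KO label go together, 58 at dose 0 and 650 with the hindbrain and spinal cord markers as covariate. It ran from 1971 to 2945 with each array left out in turn. Without the 10 arrays against the label, 29 rows were called for KO minus WT at dose 0 and 79 in the test for any difference, where 0 had been. For WT at 0.75 the count of rows was 1 with only rows that were not dim and 0 to 1 with each array left out, and so it was, 0 to 1, for R-tg minus WT at dose 0.

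Small differences between the Pon1 sets changed sign, none past the threshold. Peg3 was 0.0025 with arrays centred on their median, 0.0029 with the replicate number as a block, 0.011 in arrays not labelled KO, 0.0031 where set and label go together and 0.022 with the hindbrain and spinal cord markers as covariate. Grb10 was 0.0034 centred, 0.0014 with Xist as covariate, 0.019 with labelled groups as terms, 0.0039 in KO arrays, 0.016 in the others and 0.0066 with the marker covariate. Plagl1 was -0.0041 with the replicate block, -0.022 in KO arrays, -0.018 where set and label go together and -0.00080 at dose 0. Meg3 was -0.035 with labelled groups as terms and -0.095 in KO arrays. Igf2 was 0.021 in arrays not labelled KO, 0.020 at dose 0 and 0.033 with the marker covariate. With each array left out, Grb10 ran from -0.0044 to 0.0096, Peg3 from -0.0094 to 0.0072, Plagl1 from -0.0055 to 0.015 and Meg3 from -0.011 to 0.028. The cause was not tested.

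The count of pairs called, 8 as reported, was 1 in the 15 arrays with Pon1 below 7, where fewer arrays were tested, and 7 to 8 with each array left out. The r of Dlk1 and Meg3 was -0.039 by rank, -0.017 with arrays centred, -0.037 without the 2 farthest arrays, -0.0038 without the 10 arrays against the label and -0.24 below 7, and -0.068 to 0.12 with each array left out. The mean over all rows of a gene is the same value as reported, since each gene has 1 row.

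Replicate numbers did not pair the arrays. Over 330 pairs with the same number in different groups, the median correlation of deviations from group means was -0.014, and 237 were at or under 0.1. With the replicate block, Igf2 in R-tg at 0.75 had limma adjusted p = 0.907, and 2344 rows were called between the Pon1 sets. The number of dams limits what could be shown, and no other background correction could be run on the deposited values.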

Other observations

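Mir483, whose hairpin lies within Igf2, was set against it. Its row had a mean log2 signal of 8.10 and an r of -0.06 with Igf2 (rho -0.16) over the 60 arrays, given as a description.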
